A study of Saccharomyces cerevisiae with 6 samples.

Results

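The 9 genes described here encode the core subunits of the budding yeast Ccr4-Not complex. They were chosen by name, from their systematic gene names, and are 9 of the 5913 genes with a value. They are *NOT1* (*CDC39*, YCR093W), *NOT2* (*CDC36*, YDL165W), *NOT3* (YIL038C), *NOT5* (YPR072W), *NOT4* (*MOT2*, YER068W), *CCR4* (YAL021C), *CAF1* (*POP2*, YNR052C), *CAF40* (YNL288W) and *CAF130* (YGR134W). RNA-seq was performed on 6 samples, 3 cultures of *not4Δ* cells expressing Not4WT and 3 of *not4Δ* cells expressing Not4RRM, to ask what the RNA recognition region of Not4 contributes to mRNA levels. All 6 samples share the BY4741 background (mating type a, *his3Δ1 leu2Δ0 met15Δ0 ura3Δ0*), the replacement of chromosomal *NOT4* by a KANMX cassette and a centromeric plasmid with the *URA3* marker. The plasmid expresses FLAG-tagged Not4 from the constitutive *ADH1* promoter, so in both groups *NOT4* RNA is made from a promoter other than its own. Not4RRM differs from Not4WT by the substitutions G167A, F202A and C244A.

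Ccr4-Not is a conserved multisubunit complex that acts at many steps of gene expression. Its nuclease subunits shorten the poly(A) tails of mRNAs, which starts their decay, and its RING subunit Not4 is a ubiquitin ligase that modifies ribosomal and other proteins. The subunits are assembled on the large scaffold Not1, with the Not proteins at its C-terminal part and the deadenylase subunits near its middle.

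The reference sequences around the codons changed in Not4RRM are shown because this is the only designed difference between the groups. They are from the forward strand of chromosome V (RefSeq, R64 assembly), with the changed codon in capitals. The windows span chrV:293524-293574 for G167A, chrV:293629-293679 for F202A and chrV:293755-293805 for C244A.

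NOT4 codon of G167A: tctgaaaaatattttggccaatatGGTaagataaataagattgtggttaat

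NOT4 codon of F202A: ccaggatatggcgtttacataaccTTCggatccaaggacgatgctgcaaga

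NOT4 codon of C244A: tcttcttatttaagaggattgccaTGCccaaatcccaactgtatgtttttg

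The deposited values are read counts per gene that the authors scaled to the sample with the lowest coverage, here called scaled counts. Their totals lay between 14881818 and 14881884 in all 6 samples, and the depth before scaling is unknown, so the spread between cultures is the error used. All 9 genes passed the filter on low values. Not4RRM replicate 1 stood apart from the other Not4RRM libraries. Its log2 correlation with them was 0.952 and 0.947, and with Not4WT replicates 1, 2 and 3 it was 0.963, 0.951 and 0.959. Not4RRM replicates 2 and 3 were unusually alike, at 0.993, against 0.968 to 0.984 between Not4WT replicates. Not4WT replicate 3 correlated at 0.983 and 0.979 with Not4RRM replicates 2 and 3. Its correlation with Not4WT replicates 1 and 2 was 0.984 and 0.968. By these correlations the libraries did not separate fully by group. Not4RRM replicate 1 was lower for long genes (Spearman rho of its deviation from the other samples with coding length -0.46 over 5801 genes, a description). The same rho was 0.22, 0.39 and 0.04 for the Not4WT replicates. Over all genes the log2 fold change had rho -0.41 with length, and -0.18 without Not4RRM replicate 1. Fits without that library rest on the 2 alike Not4RRM libraries. Results that rest on Not4RRM replicate 1 are given with and without it. The mating type was checked with 6 a-specific and 4 alpha-specific genes. Of the a-specific genes *AGA2* had the lowest scaled count in any sample, 319, and *STE2*, the alpha factor receptor gene, ranged from 5222 to 12373. Of the alpha-specific genes *MF(ALPHA)1*, which encodes alpha factor, was between 3 and 14, *MF(ALPHA)2* between 33 and 181, *STE3* between 69 and 120 and *SAG1* between 208 and 332. None of the a-specific genes was called with all samples. Without Not4RRM replicate 1, 4 of the 6 were called lower with Not4RRM, where 2.26% of all genes were. In that fit *MFA2* (log2 fold change 0.10, limma adjusted p = 0.935) and *STE6* (0.02, 0.922) were slightly above 0 and not called. The 4 called lower were *STE2* (log2 fold change -0.69, limma adjusted p = 0.0325), *BAR1* (-0.71, 0.0367), *MFA1* (-2.84, 0.0264) and *AGA2* (-1.89, 0.0338). For each of these, Not4RRM replicate 1 had the highest scaled count of all samples.

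Of the 9 subunit genes, *NOT4* itself was the one with a large difference between the groups. It was about 3-fold higher with Not4RRM. Among the 8 genes transcribed from the chromosome, *CCR4* was lower in all 3 Not4RRM samples than in any Not4WT sample, and the scaled counts of the other 7 overlapped between the groups. In the limma comparison of log2 values, 0 of the 9 genes met both limits for a call (adjusted p below 0.05, difference of 1.5-fold or more), as did 0% of the 5805 genes tested. No gene had an adjusted p below 0.072, and an unadjusted p under 0.05 was found for 926 genes. At that unadjusted limit 1 member was higher with Not4RRM, *NOT4*, where 9.84% of all genes were higher, and 1 was lower, *CCR4*, where 6.12% were lower. Groups that did not overlap in scaled count were found for the same genes, 1 higher member against 7.89% of all genes and 1 lower member against 18.7%. By the steps of the study's methods, an unequal-variance test on the scaled counts with an unadjusted p limit and the 1.5-fold limit, 355 genes passed. The Benjamini-Hochberg adjustment that those methods then apply within the resulting list left the count at 355, as it must. Within a list already cut at p below 0.05, an adjusted p cannot exceed the largest p in the list. That step is therefore no check on these genes. The 355 genes too took in 1 member higher, *NOT4*, against 2.2% of genes, and 1 lower, *CCR4*, against 3.81%.

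**Figure D1:**
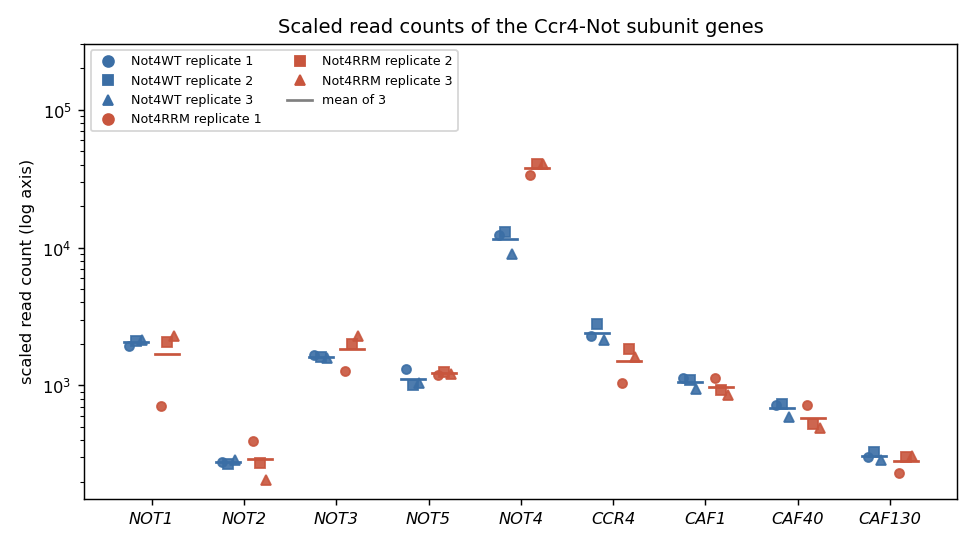
Scaled read counts (log axis) of the 9 Ccr4-Not subunit genes in the 3 Not4WT and 3 Not4RRM samples, with group means. *NOT4* lies at 33371 or more in every Not4RRM sample and at most at 13057 with Not4WT, and *CCR4* is the one chromosomal gene of the 9 whose groups do not overlap. Of all genes tested, 7.89% were higher and 18.7% lower with Not4RRM without overlap.

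*NOT1* encodes the essential scaffold of the complex. The gene lies at chrIII:280117-286443 on the forward strand, and at 6327 bp its coding sequence is the longest of the 9. Its scaled count was 1924, 2104 and 2121 with Not4WT, and 706, 2051 and 2292 with Not4RRM. The low value was that of Not4RRM replicate 1, and the other Not4RRM samples lay within or above the Not4WT range. The means were 2050 ± 109 and 1683 ± 855 (SD, n = 3 each). The log2 fold change of Not4RRM over Not4WT was -0.33 (standard error 0.43, limma adjusted p = 0.708). The sign turned without Not4RRM replicate 1, to 0.22 (limma adjusted p = 0.282).

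*NOT2*, *NOT3* and *NOT5* encode the subunits that give the Not module its shape. Not2 and Not5 bind each other and the C-terminal part of Not1, and Not3 and Not5 are related proteins that share an N-terminal coiled-coil region. *NOT2* (chrIV:164290-164865, forward strand) has the shortest coding sequence of the 9, 576 bp. Its scaled count was 280, 271 and 287 with Not4WT, and 396, 274 and 205 with Not4RRM. The Not4RRM samples lay on both sides of the Not4WT range, with replicate 1 the highest of the 6. Its log2 fold change was 0.13 (standard error 0.23, limma adjusted p = 0.795), and -0.10 without Not4RRM replicate 1.

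*NOT3* (chrIX:280142-282652, reverse strand) had scaled counts of 1657, 1594 and 1591 with Not4WT, and 1277, 1983 and 2277 with Not4RRM. Not4RRM replicate 1 was below all Not4WT samples and the other Not4RRM samples were above them. On the log2 scale the difference was 0.28 (standard error 0.24, limma adjusted p = 0.580). Without Not4RRM replicate 1 it was 0.53 (limma adjusted p = 0.0581). *NOT5* (chrXVI:690107-691789, forward strand) had scaled counts of 1321, 999 and 1034 with Not4WT, and 1199, 1253 and 1218 with Not4RRM. The Not4RRM samples lay close together, above the lower pair of Not4WT samples and below Not4WT replicate 1. For *NOT5* the log2 fold change was 0.26 (standard error 0.18, limma adjusted p = 0.467).

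*NOT4* encodes the RING ubiquitin ligase of the complex, which also carries the RNA recognition motif and a zinc-finger segment next to it. The gene lies at chrV:293050-294813 (forward strand), in a single uninterrupted coding sequence of 1764 bp. Its reads come from the plasmid by design, so its level does not check the deletion. The scaled count was 12357, 13057 and 8966 with Not4WT, and 33371, 40410 and 40314 with Not4RRM. Every Not4RRM sample was above every Not4WT sample. The means were 11460 ± 2188 and 38032 ± 4037 (SD, n = 3 each), a ratio of 3.32. The log2 fold change was 1.87 (95% interval 1.34 to 2.40, limma adjusted p = 0.072), and the exact permutation test gave p = 0.1, the smallest possible with 3 samples against 3. Among all genes tested *NOT4* ranked 2 by p and 8 by the size of the fold change.

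Whether *NOT4* was called depended on the length trend and on Not4RRM replicate 1. With the trend of each sample with coding length removed, *NOT4* was 1 of 3 genes called (0.0517% of 5801), with a log2 fold change of 2.00 (limma adjusted p = 0.0336). The others were *IMP3* and *URA3*, named here after their values were seen. *IMP3* lies on chromosome VIII, where the median log2 fold change before this removal was 0.65 over 275 tested genes. Without Not4RRM replicate 1, *NOT4* was called as well (log2 fold change 1.97, limma adjusted p = 0.0155), where 3.92% of 5793 genes were called higher and 2.26% lower. It was the only one of the 9 members called in either fit.

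*NOT4* made up a large part of the subunit RNA in both groups. Its share of all scaled counts was 0.083%, 0.0877% and 0.0602% with Not4WT, and 0.224%, 0.272% and 0.271% with Not4RRM. In rank of scaled count it stood between 167 and 229 of all genes with Not4WT, and between 39 and 62 with Not4RRM. Of the summed scaled counts of the 9 genes, *NOT4* took 56.2%, 56.8% and 49.9% with Not4WT, and 83.3%, 81.5% and 81.3% with Not4RRM. The sum of the other 8 genes ranged from 9001 to 9920 with Not4WT. With Not4RRM it was 6704 in replicate 1, and 9146 and 9248 in replicates 2 and 3, within the Not4WT range.

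The other gene carried by the plasmid, *URA3*, which encodes orotidine-5-phosphate decarboxylase, was also higher with Not4RRM. Its scaled count was 1047, 1270 and 1056 with Not4WT, and 9251, 4506 and 3990 with Not4RRM. The groups did not overlap, and Not4RRM replicate 1 was about 2-fold above the other Not4RRM samples, which was not the case for *NOT4*. For *URA3* the log2 fold change was 2.42 (standard error 0.31, limma adjusted p = 0.072), and 2.05 without Not4RRM replicate 1 (limma adjusted p = 0.00872). The ratio of *NOT4* to *URA3* scaled counts within a sample was 11.8, 10.3 and 8.49 with Not4WT, and 3.61, 8.97 and 10.1 with Not4RRM. Replicates 2 and 3 of Not4RRM lay within the Not4WT range and replicate 1 lay below it. The log2 ratio differed by -0.55 between the groups (exact permutation p = 0.4), and by -0.09 without Not4RRM replicate 1. In RNA from a whole culture, more plasmid copies, more cells that keep the plasmid and more RNA per copy cannot be told apart.

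**Figure D2:**
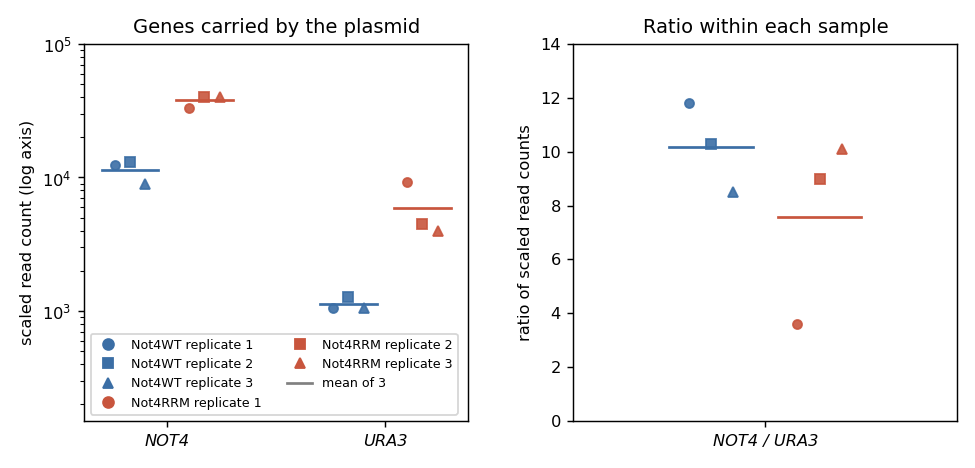
Left, scaled read counts (log axis) of *NOT4* and *URA3*, both carried by the plasmid, in the 3 samples of each group, with group means as lines, and right, the ratio of *NOT4* to *URA3* in each sample. Both genes are higher in every Not4RRM sample, and the ratio is 3.61 in Not4RRM replicate 1 and 8.49 or more in the other 5 samples.

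Chromosomal *ADH1*, the source of the plasmid's promoter, had scaled counts of 117560, 145543 and 129710 with Not4WT, and 176749, 122008 and 109688 with Not4RRM. These overlapped, and the log2 fold change was 0.15 (standard error 0.28, limma adjusted p = 0.804), with the sign turned to -0.04 without Not4RRM replicate 1. The ratio of *NOT4* to *ADH1* was 0.105, 0.0897 and 0.0691 with Not4WT, and 0.189, 0.331 and 0.368 with Not4RRM (exact permutation p = 0.1). Thus *NOT4* was higher relative to the chromosomal gene with the same promoter in every Not4RRM sample. *CYC1*, whose terminator ends the plasmid's transcript, went from 2753 ± 236 to 2076 ± 709 (SD, n = 3 each, log2 fold change -0.33) and was not called. It was called lower without Not4RRM replicate 1, at -0.59 (limma adjusted p = 0.0421). The markers deleted or disrupted in the strain were low for *LEU2* (11 to 19) and *MET15* (14 to 26), but *HIS3* ranged from 805 to 2521, with the highest value in Not4RRM replicate 1. The coding neighbours of *NOT4* on chromosome V were not called either. *RGI1*, a regulator of respiratory growth 498 bp to the left, had a log2 fold change of -0.47 (limma adjusted p = 0.659). *ARG56*, the arginine synthesis gene 596 bp to the right, had one of -0.08 (limma adjusted p = 0.884).

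*CCR4* encodes the main cytoplasmic deadenylase of yeast, and *CAF1* encodes the nuclease-fold subunit that joins Ccr4 to Not1. Both coding sequences hold a long run of CAA and CAG codons, which encode glutamine, and these are shown because they are a feature the other members lack at this length. A run of at least 10 such codons was present in 2 of the 9 members and in 0.863% of 5907 genes. The runs are from RefSeq R64, read on the coding strand with the run in capitals and 12 bases on each side. That of *CCR4* has 10 codons from codon 15 (chrI:113276-113329, reverse strand), and that of *CAF1* has 15 codons from codon 112 (chrXIV:720258-720326, reverse strand).

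CCR4 glutamine codons: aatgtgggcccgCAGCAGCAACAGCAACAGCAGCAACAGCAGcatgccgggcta

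CAF1 glutamine codons: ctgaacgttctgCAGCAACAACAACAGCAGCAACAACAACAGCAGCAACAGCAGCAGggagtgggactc

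*CCR4* (chrI:110846-113359, reverse strand) had scaled counts of 2296, 2798 and 2144 with Not4WT, and 1040, 1833 and 1608 with Not4RRM. All Not4RRM samples were below all Not4WT samples, with Not4RRM replicate 1 the lowest. The means were 2413 ± 342 and 1494 ± 409 (SD, n = 3 each), a 1.62-fold difference on the deposited scale. The log2 fold change on the TMM scale was -0.60 (95% interval -1.17 to -0.03, limma adjusted p = 0.296, exact permutation p = 0.1). Without Not4RRM replicate 1 it was -0.35 (limma adjusted p = 0.144), and with the length trend removed -0.40 (limma adjusted p = 0.306).

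*CAF1* (chrXIV:719346-720647, reverse strand) had scaled counts of 1124, 1092 and 945 with Not4WT, and 1138, 922 and 854 with Not4RRM. The groups overlapped and the log2 fold change was -0.00 (95% interval -0.39 to 0.39, limma adjusted p = 0.999). The ratio of *CCR4* to *CAF1* scaled counts was 2.04, 2.56 and 2.27 with Not4WT, and 0.914, 1.99 and 1.88 with Not4RRM. It was below the Not4WT range in every Not4RRM sample, by -0.60 on the log2 scale (exact permutation p = 0.1), and by -0.24 without Not4RRM replicate 1.

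*CAF40* and *CAF130* encode subunits that bind Not1 away from the deadenylases. Caf40 is an armadillo-repeat protein that in fly and human cells binds peptides of RNA-binding proteins. *CAF40* (chrXIV:90303-91424, forward strand) had scaled counts of 719, 731 and 593 with Not4WT, and 716, 527 and 488 with Not4RRM. Replicate 1 of Not4RRM lay within the Not4WT range and the other Not4RRM samples below it, with a log2 fold change of -0.13 (standard error 0.19, limma adjusted p = 0.745). *CAF130* (chrVII:757770-761138, forward strand) had scaled counts of 304, 331 and 286 with Not4WT, and 232, 303 and 306 with Not4RRM. Here replicate 1 of Not4RRM was the lowest of the 6 samples and the others lay within the Not4WT range. Its log2 fold change was -0.02 (standard error 0.17, limma adjusted p = 0.969).

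**Figure D3:**
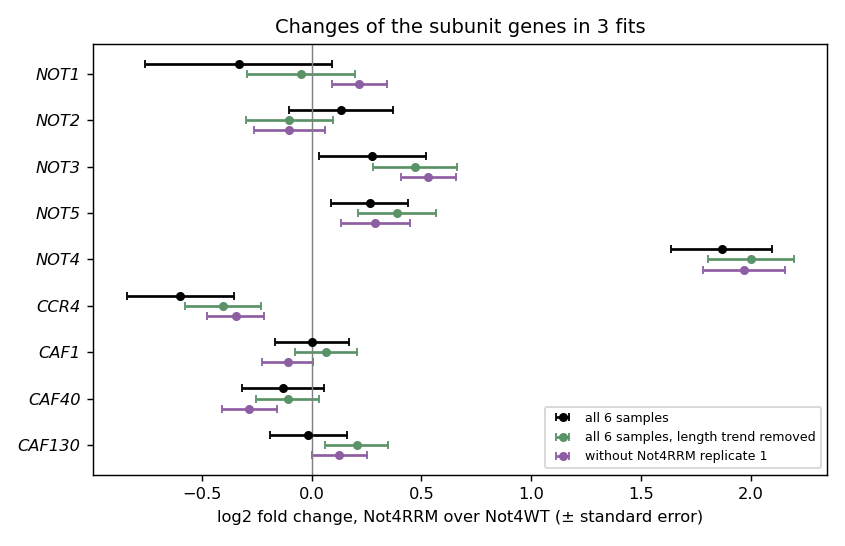
Log2 fold change of Not4RRM over Not4WT with its standard error for each of the 9 genes, from all samples, with the length trend removed, and without Not4RRM replicate 1. *NOT4* stays between 1.87 and 2.00 in these fits and *CCR4* between -0.60 and -0.35, while *NOT1*, *NOT2* and *CAF130* change sign without Not4RRM replicate 1.

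Over the 8 chromosomal members the median log2 fold change was -0.01, with 3 values above 0 and 5 below, beside a median of 0.05 over all genes tested. It was 0.01 with the length trend removed and 0.01 without Not4RRM replicate 1. The 95% intervals limit how large a difference could have gone unseen. They were narrowest for *CAF1*, and widest for *NOT1*, from -1.33 to 0.66. Without TMM, on the deposited scaling alone, the median of all genes moved by -0.12, and the fold changes are to be read relative to that shift.

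**Figure D4:**
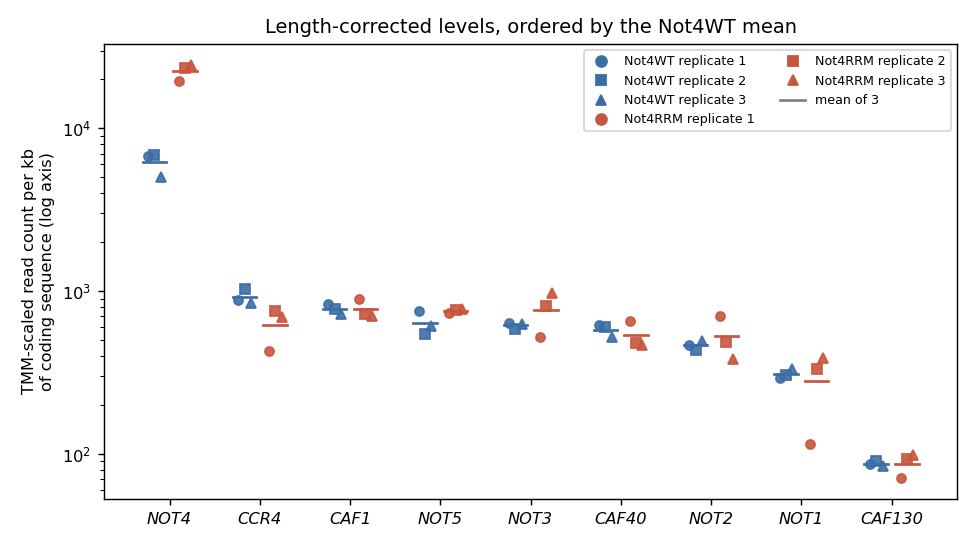
TMM-scaled read counts per kb of coding sequence (log axis) for the 9 genes in each sample, ordered by the Not4WT mean, with group means. *NOT4* lies above all other members in every sample and *CAF130* lies below them, at about 87 per kb in both groups.

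The members differed widely in level per length. In TMM-scaled counts per kb of coding sequence, *NOT4* was highest, at 6201 ± 1012 with Not4WT and 22530 ± 2721 with Not4RRM (SD, n = 3 each). With Not4WT it was followed by *CCR4* (917 ± 97.3), *CAF1* (774 ± 55.6), *NOT5* (637 ± 106), *NOT3* (616 ± 26.2), *CAF40* (580 ± 49.8), *NOT2* (465 ± 29.6), *NOT1* (310 ± 20.03) and *CAF130* (87.2 ± 3.33). Each neighbour in that order was separated in all 3 Not4WT samples, except *NOT5* from *NOT3* and *NOT3* from *CAF40*. The median over all genes was 351 per kb with Not4WT, so *NOT1*, the scaffold, and *CAF130* were below it and the other members above. The highest chromosomal member exceeded the lowest 10.5-fold with Not4WT and 8.94-fold with Not4RRM.

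With Not4RRM the order per kb changed in its upper part. *CCR4* went from the top of the chromosomal members to a place behind *CAF1* (777 ± 105), *NOT3* (770 ± 230) and *NOT5* (759 ± 23.95), at 621 ± 172 (SD, n = 3 each). Its place behind *CAF1* rested on Not4RRM replicate 1, since over replicates 2 and 3 the means were 719 for *CCR4* and 717 for *CAF1*, behind *NOT3* (894) and *NOT5* (772). *CAF1*, *NOT3* and *NOT5* were not separated from each other in all 3 samples, but *NOT5* was above *CCR4* in 3 of 3. Below *CCR4* came *CAF40* (536 ± 105), *NOT2* (526 ± 165), *NOT1* (279 ± 145) and *CAF130* (87.0 ± 14.3), and of these neighbours *NOT1* and *CAF130* alone were separated in every sample.

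The balance between subunits was also compared within each library, which does not depend on the scaling of that library. Such a ratio still holds the trend of the library with coding length. For each member the log2 level was taken relative to the mean log2 level of the other chromosomal members of the same sample. For *CCR4* this was 1.45, 1.78 and 1.48 with Not4WT, and 0.57, 1.20 and 1.05 with Not4RRM. All Not4RRM values were lower, with a difference of -0.63 (exact permutation p = 0.1), which was -0.44 without Not4RRM replicate 1. For *NOT5* it was 0.54, 0.08 and 0.27 with Not4WT, and 0.81, 0.57 and 0.60 with Not4RRM. Here all Not4RRM values were higher, if narrowly, by 0.36 (exact permutation p = 0.1), and by 0.29 without Not4RRM replicate 1. In scaled counts *NOT5* overlapped between the groups, and its reference here includes *CCR4* and *NOT1*. The share of all genes that do not overlap in such a ratio was not computed. In scaled counts that share was 7.89% higher and 18.7% lower. *NOT4* relative to the chromosomal members was higher by 1.92 (exact permutation p = 0.1). The other 6 members overlapped between the groups, with differences from -0.32 for *NOT1* to 0.37 for *NOT3*. The sign turned without Not4RRM replicate 1 for *NOT1* (0.20), *NOT2* (0.21 with it, -0.16 without) and *CAF1* (0.06 with it, -0.17 without), while *NOT3* was at 0.56, *CAF40* at -0.37 and *CAF130* at 0.10. With the length trend removed the difference was -0.53 for *CCR4*, 0.38 for *NOT5* and 1.94 for *NOT4*. In that setting it was -0.12 for *NOT1*, -0.18 for *NOT2*, with the sign turned, and 0.47 for *NOT3*. It was 0.01 for *CAF1*, -0.19 for *CAF40* and 0.17 for *CAF130*. The 9 exact permutation tests, run without that removal, cannot go below p = 0.1, so none could pass 0.05.

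**Figure D5:**
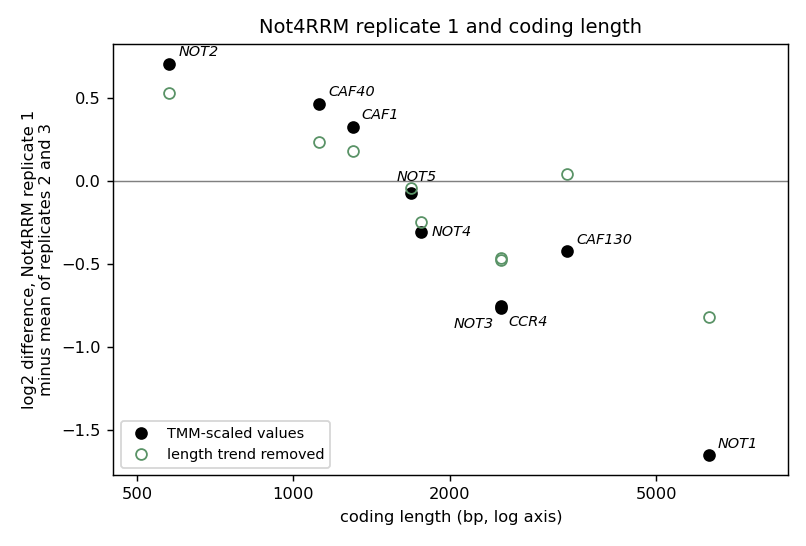
Log2 deviation of Not4RRM replicate 1 from the mean of Not4RRM replicates 2 and 3 against coding length (bp, log axis) for the 9 genes, before and after removal of the length trend. The deviation runs from 0.71 for *NOT2*, the shortest gene, to -1.65 for *NOT1*, the longest.

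The deviation of Not4RRM replicate 1 from its group was ordered by the members' coding length. Relative to the mean of Not4RRM replicates 2 and 3, replicate 1 was higher for the short genes *NOT2* (0.71 on the log2 scale), *CAF40* (0.46) and *CAF1* (0.33). It was lower for the long genes *NOT1* (-1.65), *NOT3* (-0.77), *CCR4* (-0.76) and *CAF130* (-0.42), and closest for *NOT5* (-0.08). As a description over the 9 genes of 1 library, Spearman's rho of this deviation with coding length was -0.93, beside -0.30 over all 5801 genes with a length. With the length trend removed the deviation of *NOT1* was -0.82, that of *CCR4* -0.47 and that of *CAF130* 0.04. The SD of the log2 values was 0.05 to 0.24 over the chromosomal members with Not4WT and 0.05 to 0.96 with Not4RRM, beside medians over all genes of 0.19 and 0.29.

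The genes whose values were most like those of *NOT4* over the 6 samples were *VPS29* (Pearson's r of log2 values 0.994), *SSF1* (0.993) and *GOS1* (0.991), and 143 genes had r above 0.9. All 3 lie on chromosome VIII, where the median log2 fold change was 0.65 over 275 tested genes. No member lies on that chromosome. For *CCR4* the most similar genes were *PXL1* (0.999), *SEC24* (0.997) and *PHO4* (0.995), and 374 genes had r above 0.9. These are descriptions with no test, since the 6 points share the step between the groups and, for *CCR4*, the low value of Not4RRM replicate 1.

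Outside the complex, 25 genes that act with its subunits were taken as further lists. They are the other deadenylation factors, the Ccr4-like nucleases *NGL1*, *NGL2* and *NGL3*, and the recruiting and associated factors such as the helicase *DHH1*. The rest are the E2 enzymes *UBC4* and *UBC5*, a list of Not4 substrates and *ECM29*, and subunits by which RNA polymerase II contacts the complex. Of the 25, all tested, 0 were called by limma, as were 0% of all genes, and the median log2 fold change was 0.04. Groups that did not overlap were found for 2 higher and 3 lower genes, where the shares of all genes were 7.89% and 18.7%. At an unadjusted p under 0.05, 1 was higher and 1 lower, where 9.84% of all genes were higher and 6.12% lower. The lower one was *PAN2*, which encodes the nuclease of the other cytoplasmic deadenylase, Pan2-Pan3. Its scaled count was 1358, 1255 and 1213 with Not4WT, and 440, 783 and 736 with Not4RRM. The groups did not overlap, with a log2 fold change of -0.88 (standard error 0.25, limma adjusted p = 0.179). Without Not4RRM replicate 1, 2.26% of all genes were called lower and 3.92% higher. In that fit *PAN2* was called lower, at -0.61 (limma adjusted p = 0.0345), and 1 of the 25 was called higher. That was *ECM29*, which encodes a proteasome-binding protein and lies on chromosome VIII. It was placed in the substrate list, while the paper describes Not4 as a regulator of the stability of Ecm29. The scaled count of *ECM29* was 1046, 1318 and 1041 with Not4WT, and 523, 1894 and 1580 with Not4RRM. Replicate 1 of Not4RRM was below the Not4WT range and the other Not4RRM samples above it, so the log2 fold change was 0.17 with all samples (limma adjusted p = 0.874) and 0.75 without Not4RRM replicate 1 (limma adjusted p = 0.0345).

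The partner of Pan2, *PAN3*, had a log2 fold change of -0.31 (limma adjusted p = 0.442). *PAB1*, the poly(A)-binding protein gene, had scaled counts of 52542, 50496 and 33469 with Not4WT, and 30149, 28933 and 25909 with Not4RRM. These did not overlap, with a log2 fold change of -0.53 (standard error 0.25, limma adjusted p = 0.333). The gene with an unadjusted p under 0.05 in the other direction was *EGD2*, a Not4 substrate and subunit of the nascent polypeptide-associated complex, at 0.61 (limma adjusted p = 0.292). It lies on chromosome VIII. By list, 0 of 3 deadenylation factors, 2 of 3 Ccr4-like nucleases and 1 of 7 recruiting factors had a positive log2 fold change. So did 2 of 2 E2 enzymes, 7 of 8 genes of the substrate list and 2 of 2 polymerase genes, against 3183 of 5805 genes. Without Not4RRM replicate 1 these counts were 0 of 3, 2 of 3, 3 of 7, 1 of 2, 5 of 8 and 1 of 2 in the same order, against 3023 of 5793 genes.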

How the data were processed

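Total RNA of *not4Δ* cells expressing Not4WT or Not4RRM (3 cultures each) was sequenced on an Ion Torrent Proton. The labels describe poly(A) selection with beads, while the paper's methods describe a Lexogen kit. The authors aligned reads to the S288C transcriptome with STAR (version not given in the sources used here), counted them per transcript, scaled each sample to the lowest coverage and deposited the rounded result, treated here as a score and not as raw counts. Whether counting used strand is not given. The counting error of a value is therefore unknown. The labels name the group of every sample, and 0 sample columns were left unused. One row without a gene name was left out, and 5907 of 5913 genes matched R64.

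Testing was limited to genes that reached 10 in 3 or more samples and 15 in total. After division by a TMM factor (trims of 30% and 5%) and addition of a pseudocount of 1, values were log2-transformed and compared with limma 3.58.1 (R 4.3.3, trended prior variance). The pseudocount shrinks the fold changes of low genes. P-values were adjusted by Benjamini-Hochberg over all 5805 genes. Genes were called when the adjusted p was below 0.05 and the groups differed 1.5-fold or more. Single values were compared with two-sided exact permutation tests (scipy 1.17.1). The length trend was removed per sample by loess (span 0.5). The code was tested on simulated data.

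The genes named are the 9 members, those of the partner lists on which a result turns, the plasmid, strain and mating-type checks, the neighbours of *NOT4* and the 3 genes most like *NOT4* and *CCR4*. The members and lists were chosen with earlier results of these data known. The alternatives were other scalings, pseudocounts of 0.5 and 10, other filters, a constant prior variance, no fold limit, length trend removal, a replicate block, the steps of the study and each sample left out.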

Additional observations from a re-analysis of the deposited data

How the results depend on the processing

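The counts of calls depended on Not4RRM replicate 1. The number of genes called by limma was 0 with all samples and ranged from 0 to 358 with each sample left out in turn, 358 being the count without Not4RRM replicate 1. It was 3 with the length trend removed and 355 by the steps of the study. The number of subunit genes called was 0 with all samples, 0 to 1 with each sample left out, 1 with the length trend removed and 2 by the steps of the study. A fit without Not4RRM replicate 1 and with the length trend removed, chosen after seeing the data, gave 332 genes and 1 subunit gene, *NOT4*. No other alternative called a gene. The main fit used no pairing by replicate number. Correlations of the deviations were 0.07, -0.15 and 0.38 for same-numbered samples, and -0.37 to 0.30 for differently numbered ones. With 3 samples a group these values cannot show whether the samples were paired. With the replicate block 0 genes and 0 subunit genes were called. Among the genes given with values, *ECM29* and *AGA2* turned sign between alternatives and were also called without Not4RRM replicate 1, and the others whose sign turned were called in no alternative. By the steps of the study, which compare means of scaled counts, *AGA2* was at 0.50. With the length trend removed, and also with the replicate block in that fit, the log2 fold change was -0.10 for *NOT2*, 0.0639 for *CAF1*, 0.20 for *CAF130* and 0.12 for *ARG56*. In the fit chosen after seeing the data it was 0.22 for *NOT1*, -0.28 for *NOT2*, 0.0047 for *CAF1*, 0.19 for *CAF130*, -0.42 for *HIS3* and 0.19 for *LEU2*. With each sample left out in turn, the ranges that crossed 0 for these genes were -0.67 to 0.22 for *NOT1*, -0.10 to 0.34 for *NOT2*, -0.11 to 0.0646 for *CAF1*, -0.11 to 0.12 for *CAF130*, -0.30 to 0.48 for *HIS3*, -0.27 to 0.10 for *LEU2*, -0.0195 to 0.38 for *MET15*, -0.0386 to 0.27 for *ADH1*, -0.999 to 0.067 for *RGI1*, -0.32 to 0.0846 for *ARG56*, -0.18 to 0.75 for *ECM29* and -1.89 to 0.11 for *AGA2*. Partner list genes given only as counts, *MFA2* and *STE6* were not included in these ranges. The log2 fold change of *NOT4* kept its sign in every alternative, between 1.69 and 2.08, and that of *CCR4* between -0.75 and -0.25. The causes were not tested. With 3 samples a group and unknown depth, the values do not exclude differences inside the intervals given.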
